A study of Caenorhabditis elegans with 9 samples.

Results

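Adult Caenorhabditis elegans kept on agar with 1-methylnicotinamide (MNA) were compared with adults kept on agar with water, the solvent of the compound. The comparison holds 6 of the 9 RNA libraries of the series, 3 per group, chosen by the treatment named in the labels and by no measured value. All worms were taken as whole animals 48 hours after the last larval stage (L4), and MNA was given at 1 µM. Every plate came from a single batch of nematode growth agar, so the groups share the medium and differ in the compound added; strain, sex and food are not stated. The other 3 libraries came from worms on nicotinic acid, whose dose reads 1 mM in the sample source and 1 nM in the treatment protocol. They entered the fit and are set beside MNA below, at doses that differ under either reading.

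MNA is nicotinamide with a methyl group on the ring nitrogen. In C. elegans the methyltransferase ANMT-1 makes it from nicotinamide, which NAD-consuming enzymes such as the sirtuin SIR-2.1 release, with S-adenosylmethionine as the methyl donor. The aldehyde oxidase GAD-3 oxidises MNA and gives off hydrogen peroxide. Worms clear foreign and reactive compounds in steps: cytochromes P450, flavin monooxygenases and dehydrogenases change the molecule, and glutathione S-transferases and UDP-glucuronosyltransferases then attach glutathione or a sugar. The factor SKN-1 drives many genes of the second step, and the intestine is the main site of this chemistry.

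Library totals ran from 22434246 to 26655263 counts for control and from 23990697 to 27976679 for MNA, and 13985 genes held enough counts to be tested. Levels are given as CPM, the count scaled to a common library total, in the order of libraries 1, 2 and 3. CPM is not adjusted for gene length, so levels were not compared between genes. A gene was called when edgeR's quasi-likelihood test gave a Benjamini-Hochberg adjusted p below 0.05, and its change is the fitted log2 ratio of MNA to control with the model's standard error (SE).

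Worms on MNA had 508 genes higher than control (3.63% of those tested) and 528 lower (3.78%). Of these, 310 (2.22% of those tested) rose and 172 (1.23%) fell by 2-fold or more. In summed level the risen genes gained 5132 CPM and the fallen genes lost 6860 CPM between the group means. The count depended on the libraries, MNA 2 most of all: without it 228 genes were called higher and 141 lower. Without MNA 1, 265 of the 508 risen and 190 of the 528 fallen genes were still called. Whole worms were sequenced, so more RNA per cell and more cells of a type cannot be told apart in any of these values.

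The called genes were also tested between MNA and nicotinic acid, at the doses used. Among the 508 risen genes, 128 (25.2%) were also higher under MNA than under nicotinic acid, where 1.1% of all genes tested were. Among the 528 fallen genes, 9 (1.70%) were lower under MNA than under nicotinic acid, against 0.315% of all genes tested. Both tests reuse the MNA libraries that defined the calls. The median change of the risen genes was 1.22 under MNA and 0.41 under nicotinic acid, and that of the fallen genes was -0.74 and -0.69, with the same 3 control libraries in both.

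Of the 20 largest rises, 10 belonged to the families that modify and conjugate small molecules. The glutathione S-transferase gst-35 (Y1H11.2) read 0.719, 0.549 and 1.07 CPM in control and 95, 77.4 and 41.1 CPM under MNA, a log2 change of 6.48 (SE 0.46, adjusted p = 7.64e-04), which is 89.2-fold. Its nicotinic acid libraries stood at 1.5, 0.856 and 0.966 CPM. A second transferase, gst-21 (ZK697.6), went from 1.17, 0.929 and 1.07 CPM to 92.1, 66.8 and 40 CPM, or 62.5-fold. Both genes lay between 0.549 and 1.82 CPM in all control and nicotinic acid libraries, and the lowest MNA library of either was far above that range.

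The UDP-glucuronosyltransferase ugt-37 (F10D2.6) rose 50.3-fold, from 1.08, 0.676 and 0.773 CPM to 52, 50.7 and 24.2 CPM. The flavin-containing monooxygenase fmo-5 (H24K24.5), which adds oxygen to nitrogen and sulphur atoms, rose 26.3-fold, from 9.53, 8.49 and 8.69 CPM to 299, 271 and 132 CPM. With 225 CPM added to its mean level, it gained more than any other gene of those that qualified for naming. F49E12.10, for which no role is given here, rose from 1.48, 1.39 and 1.55 CPM to 94.7, 85.1 and 39.1 CPM.

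**Figure D1:**
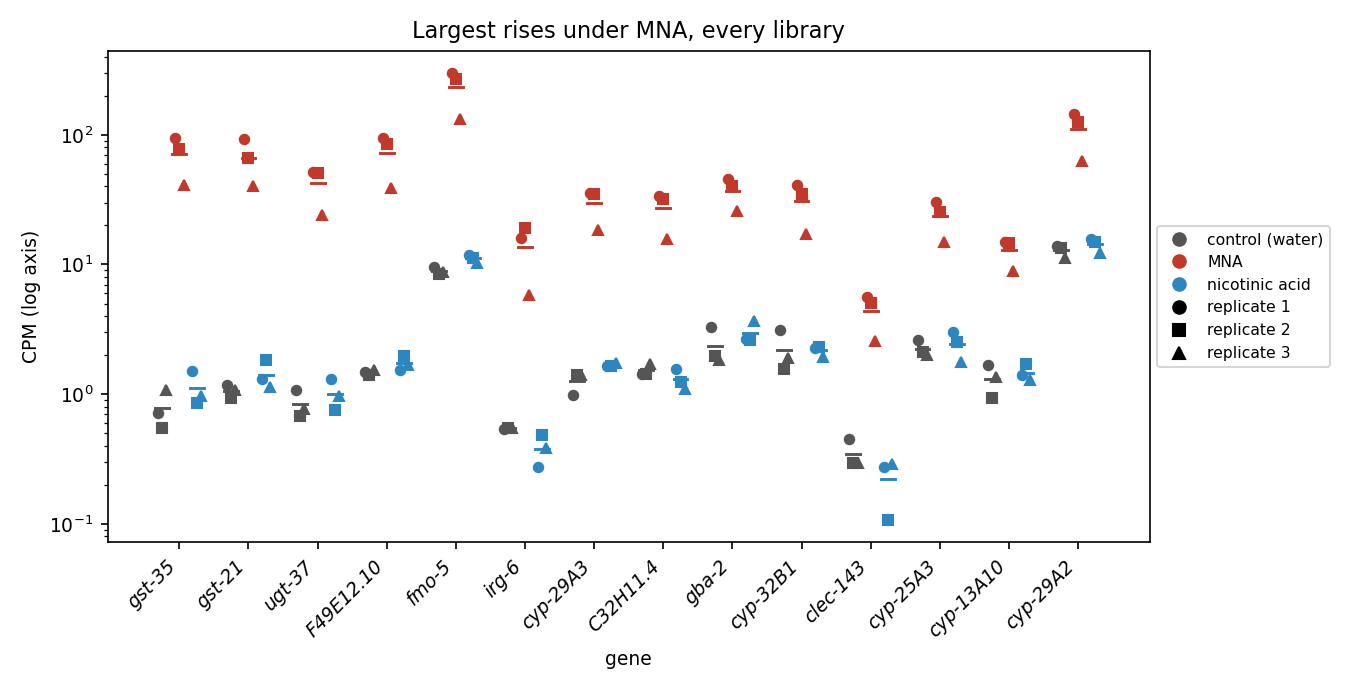
Level in CPM (log axis) of the 14 genes with the largest rises under MNA, in each control (grey), MNA (red) and nicotinic acid (blue) library, with the group mean as a bar and the replicate number as the symbol shape. The MNA libraries lie above all control libraries, as the choice of these genes required. They also lie above all nicotinic acid libraries for every gene shown, and MNA 3 is the lowest MNA library each time.

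Of the 20 largest rises, 18 also differed from nicotinic acid by test; the exceptions were the surface gene bah-1 (adjusted p = 0.061) and the collagen col-17 (adjusted p = 0.23). All 20 kept their call when any single library was left out. MNA 3 was the lowest MNA library for all 20, and the highest was MNA 1 for 16 and MNA 2 for 4. For example, gst-35 stood at 41.1 CPM in MNA 3 and at 95 CPM in MNA 1.

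Cytochromes P450, haem enzymes that insert oxygen into small molecules, moved in a few strong members. Of 65 tested, 11 were higher and 3 lower, and the median of the family was -0.04, beside 0.00 for all genes tested. The largest rise, that of cyp-29A3 (Y38C9B.1), was 23.2-fold, from 0.989, 1.39 and 1.4 CPM to 35.5, 34.7 and 18.6 CPM (log2 change 4.54, SE 0.28, adjusted p = 4.61e-05). Its relative cyp-29A2 (T19B10.1) went from 13.9, 13.4 and 11.2 CPM to 146, 125 and 63.1 CPM. The next were cyp-32B1 with a change of 3.83, cyp-25A3 with 3.40, cyp-13A10 with 3.28 and cyp-33C2 with 2.55. In all 11 risen P450 genes MNA 1 was the highest and MNA 3 the lowest MNA library, and 9 of the 11 were higher than under nicotinic acid. The 3 falls were less firm: none was called without MNA 1 or without MNA 2, and 6 members were called lower without MNA 3.

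Of glutathione S-transferases, 14 of 39 tested members were higher and none lower, with a median of 0.30. Under nicotinic acid the median was 0.31, with 3 members higher and 1 lower than the same controls. By unadjusted p under 0.05, 16 were higher and 2 lower, and DESeq2 called 12 higher and 0 lower. Beside gst-35 and gst-21 the changes were moderate. The reporter gene of SKN-1 activity gst-4 (K08F4.7) read 10.9, 15 and 14.7 CPM in control and 26.6, 29.5 and 25.1 CPM under MNA, a change of 1.00 (SE 0.11, adjusted p = 3.73e-04). Another, gst-7 (F11G11.2), went from 172, 175 and 169 CPM to 297, 275 and 214 CPM. In both, the groups were well apart, and MNA 3 was the lowest MNA library. For gst-7 the lack of overlap was a condition of being named. Changes of 1.82 for gst-38, 1.61 for gst-12, 1.30 for gst-6 and 1.24 for gst-5 lay between. The summed level of the family was 593.6 to 628.2 CPM in control, 847.2 to 1071 CPM under MNA and 648.4 to 668.8 CPM under nicotinic acid. Of the 14, 8 were higher than under nicotinic acid; without MNA 2, 9 members were called.

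Among the 24 genes listed as reporters or targets of SKN-1, 14 were higher and none lower, with a median of 0.68; DESeq2 called 12 higher and 0 lower, and by unadjusted p the counts were 16 and 0. Many of these are the transferases just given, so the lists are not separate evidence. The gene for SKN-1 itself changed by 0.02, with a 95% interval of -0.09 to 0.13. Of the glutathione-making enzyme gcs-1, a standard target, the control libraries held 117, 117 and 104 CPM and the MNA libraries 128, 127 and 119 CPM. That was a change of 0.14, and it did not pass the test (adjusted p = 0.16).

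UDP-glucuronosyltransferases numbered 9 higher and 2 lower of 60 tested, with a median of 0.04. After ugt-37 came ugt-21 (C33A12.6), from 7.96, 7.94 and 8.69 CPM to 57.3, 45 and 29.4 CPM, and ugt-16 (ZC443.6), from 16.4, 16 and 16.6 CPM to 65.2, 60.3 and 39.9 CPM. Both differed from nicotinic acid, with adjusted p = 0.0021 and 0.0026. Leaving out MNA 2 left 5 members called higher.

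Short-chain dehydrogenases of the dhs family, which interconvert alcohols and ketones, were higher in 8 of 30 and lower in 1. The largest in CPM gained was dhs-19 (T11F9.11), at 22.6, 25.2 and 25.7 CPM in control and 180, 166 and 92.4 CPM under MNA. It differed from nicotinic acid too, by 2.36 (SE 0.26, adjusted p = 0.0091). Changes of 2.97 for dhs-20, 2.78 for dhs-26 and 2.26 for dhs-2 were of like size. Aldehyde dehydrogenases had 3 of 15 higher. They were led by alh-5 at 1.76 and by alh-4 (T05H4.13), which has fatty aldehydes as its substrates and rose from 108, 111 and 104 CPM to 251, 228 and 159 CPM. Of 33 carboxylesterases, 2 were higher (6.06%, beside 3.63% of all genes tested) and 3 lower (9.09%, beside 3.78%). Their median was -0.16, with 9 above 0 and 24 below. The rises were cest-27 at 1.10 and cest-33 at 0.37. The falls were cest-17 at -1.03, cest-8 at -0.93 and the gut esterase ges-1 at -0.28. cest-33 and ges-1 lost their calls without MNA 1 or MNA 2. Of 48 ABC transporter genes, some of which export conjugates, 2 were higher, or 4.17% beside 3.63% of all genes (the peroxisomal pmp-4 at 0.48 and pgp-3 at 0.39) and mrp-3 was lower at -0.28. None of these 3 kept its call without MNA 1 or without MNA 2.

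Of the redox list, which holds genes that remove peroxides and superoxide, 12.9% were higher, beside 3.63% of all genes tested. The share lower was 3.23%, beside 3.78%. The glutathione peroxidase gpx-1 (F26E4.12) rose from 12.7, 13.7 and 13.1 CPM to 22.3, 23.2 and 18.3 CPM (log2 change 0.69, SE 0.10, adjusted p = 0.00177). The cytosolic superoxide dismutase sod-1 (C15F1.7) rose from 109, 115 and 113 CPM to 141, 139 and 128 CPM, a change of 0.27 (SE 0.05, adjusted p = 0.00489). Both were above nicotinic acid as well, with adjusted p = 0.0032 and 0.018. The peroxidase gene gpx-3 changed by 0.92 from low levels, 1.26, 1.18 and 1.33 CPM in control and 1.73, 2.07 and 3.29 CPM under MNA. It stood at 2.05, 2.89 and 2.86 CPM under nicotinic acid and was called in 2 of the 9 fits without a library. In all, 4 of 31 redox genes were higher and 1, the methionine sulfoxide reductase msra-1 at -0.41, was lower; leaving out MNA 2 or control 3 reduced the 4 to 2, and msra-1 lost its call without MNA 1 or MNA 2. The peroxiredoxin prdx-2 rose by 0.23 and was called in 3 of the 9 fits without a library. The mitochondrial dismutase gene sod-3 stood at 1.12, 1.82 and 1.03 CPM in control and 1.64, 1.93 and 2.77 CPM under MNA, and did not pass (adjusted p = 0.137), though it did without control 2 (adjusted p = 0.0401).

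The peroxisomal pathway that shortens fatty acids, and from which worms make their ascaroside pheromones, held several rises. Its first enzyme, the acyl-CoA oxidase acox-1.1 (F08A8.1), which releases hydrogen peroxide, went from 37.1, 37.6 and 33 CPM to 121, 121 and 71.2 CPM. That was a change of 1.54 (SE 0.21, adjusted p = 0.00734), with nicotinic acid at 44.5, 38.4 and 39.4 CPM. The thiolase daf-22 (Y57A10C.6), the last enzyme, rose from 60.4, 58 and 62.4 CPM to 104, 104 and 77.6 CPM. For both genes every MNA library lay above every control and nicotinic acid library. Over all genes tested, 11.5% had every MNA library above every control, and both genes were named for their small p. The middle steps moved less. The hydroxyacyl-CoA dehydrogenase dhs-28 rose by 0.54 (adjusted p = 0.0241), a call lost without MNA 1, MNA 2, control 2 or control 3, and the hydratase maoc-1 by 0.25 did not pass (adjusted p = 0.16). The acyl-CoA synthetase acs-7, at 0.80, lost its call without MNA 2. With ech-8 at 0.73 and acdh-6 at 1.65, 7 of the 60 lipid-breakdown genes tested were higher and 1 was lower, the propionate-shunt dehydrogenase acdh-1 at -0.27 (not called without control 1, MNA 1 or MNA 2). The number higher was 4 without MNA 2 and 14 without MNA 3. dhs-28, maoc-1 and acs-7 were chosen after their values were seen.

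Of 23 sphingolipid enzymes, 3 were higher and none lower by edgeR or DESeq2, with 2 lower by unadjusted p. Over all genes tested the share higher was 3.63%. The median of the list was -0.02, with 11 members above 0 and 12 below, so the list as a whole did not rise. The glucocerebrosidase-family gene gba-2 (C33C12.8) went 15.8-fold up, from 3.28, 1.99 and 1.84 CPM to 45.4, 40.4 and 25.8 CPM. The sphingomyelinase asm-2 changed by 1.37 and the ceramidase asah-1 by 0.52. Only the last lost its call when a library was left out, which happened without MNA 1, MNA 2 or control 3.

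CUB-like-domain and related dod and irg genes, many of them gut-expressed and named for infection response or for their place downstream of DAF-16, were higher in 11 of 24 and lower in 3, with a median of 0.37. The summed level of the list went the other way, at 1755, 1839 and 1874 CPM in control and 1710, 1639 and 1647 CPM under MNA, so every MNA library was below every control. The gene irg-6 (C32H11.1) went from 0.54, 0.549 and 0.552 CPM to 16, 19.2 and 5.78 CPM, or 24.7-fold; limma-voom did not call it (adjusted p = 0.0568). Its neighbour by name C32H11.4 went from 1.44, 1.44 and 1.69 CPM to 33.6, 32.3 and 15.7 CPM. irg-4 (F08G5.6) rose from 10.1, 8.28 and 10.9 CPM to 49.9, 43 and 27.6 CPM, a change of 2.04 (SE 0.22, adjusted p = 0.00156). MNA 3 was the lowest MNA library in 10 of the 11 risen members, and 8 of the 11 were above nicotinic acid by test.

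Of the dod genes and their relatives, dod-24 changed by 1.50, F55G11.2 by 2.27 and dod-17 by 1.66. The infection-response genes irg-3, irg-5 and irg-6 rose by 1.99, 1.94 and 4.63. Against these, irg-2 fell by 0.86, a call lost without MNA 1, MNA 2 or control 1, and dod-23 fell by 0.62. dod-23 (F49E12.2) stood at 238, 223 and 237 CPM in control and 152, 145 and 157 CPM under MNA. The genes of the upstream regulators pmk-1, daf-16 and elt-2 did not pass: their changes were -0.18 (95% interval -0.37 to 0.01), -0.07 (-0.18 to 0.04) and -0.29 (-0.48 to -0.10).

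C-type lectins, secreted sugar-binding proteins, went both ways, with 11 of 105 higher, 9 lower and a median of 0.01. The risen ones include clec-143 at 3.65, clec-174 at 2.85, clec-74 at 2.77 and clec-72 at 1.13. At 2, 1 and 4 counts in the control libraries, the change of 3.32 for clec-9 rests on very low levels. The falls were unstable, with none called without MNA 2, while the number of rises moved by less than 1.5 times. Among lysozymes and saposin-like peptides 4 of 31 were higher, led by spp-12 at 2.18, and none of the 4 was called without MNA 2. The lysozyme lys-7 was lower, from 380, 373 and 384 CPM to 339, 288 and 265 CPM, a call kept in 4 of the 9 fits without a library, and the list median was -0.06. Of 22 metal and hypoxia genes, 3 were higher and 1 lower, with 2 higher without MNA 1, MNA 2, control 2 or control 3. Among them was the cadmium-responsive cdr-6 (K01D12.12), at 31.2, 34 and 35.6 CPM in control and 103, 98.4 and 67.1 CPM under MNA. It differed from nicotinic acid as well (adjusted p = 0.0038). The metal transporter smf-3 changed by 1.00.

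**Figure D2:**
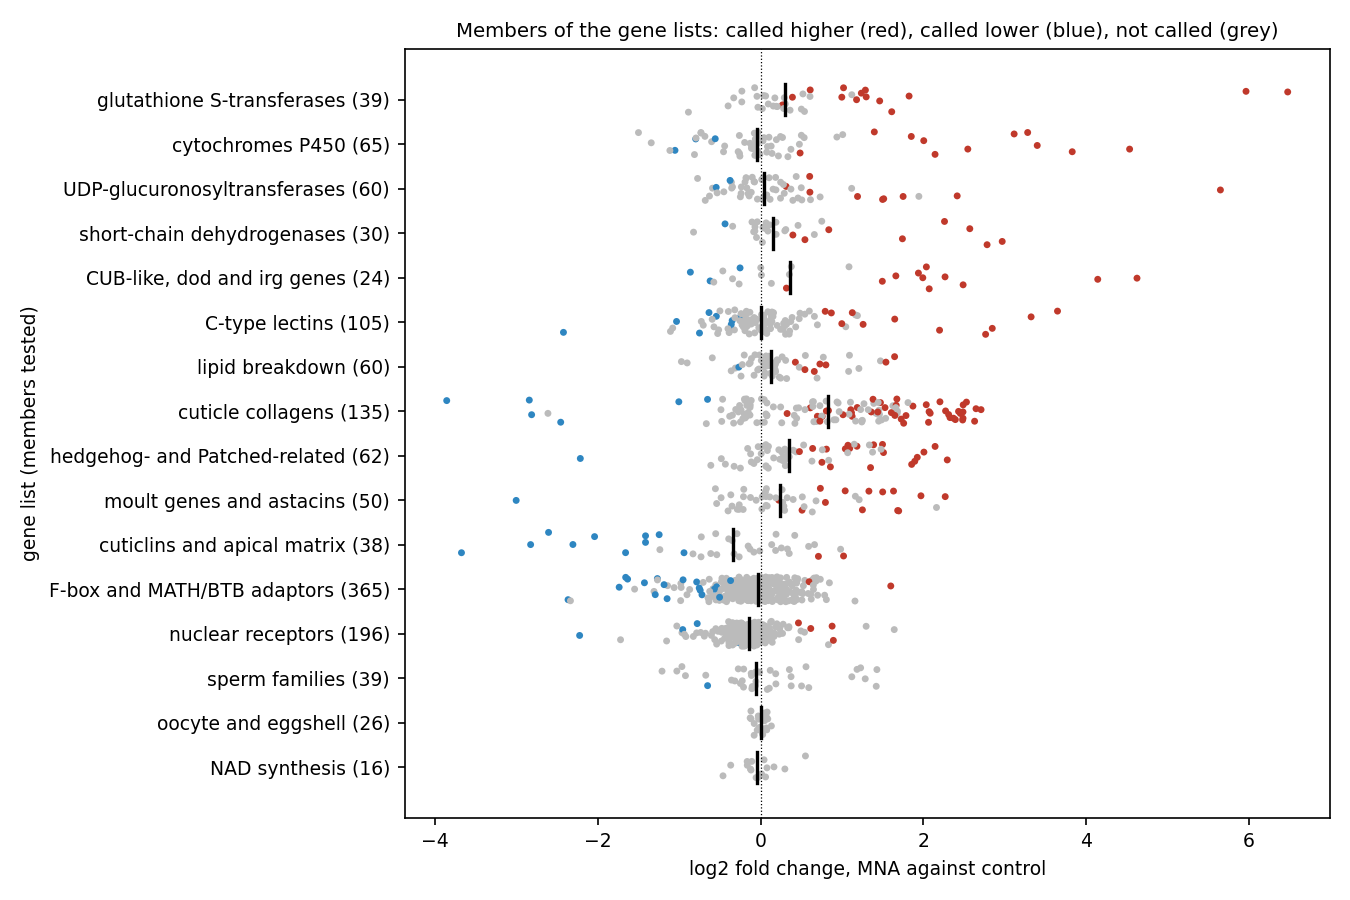
Log2 fold change between MNA and control of every tested member of 16 gene lists, with called members in red (higher) or blue (lower), other members in grey and the list median as a black bar. Detoxification and immune lists have a few members far to the right, while collagens are shifted as a group, with a median of 0.83, and cuticlins lie to the left, with a median of -0.34.

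Cuticle collagens, which are made in bursts and form the outer coat of the worm, had more risen members than any other list. Of 135 tested, 45 were higher (33.3%, beside 3.63% of all genes tested) and 6 lower (4.44%, beside 3.78%), with a median of 0.83. By share higher, collagens came below the SKN-1 list (58.3%), the CUB-like list (45.8%) and glutathione S-transferases (35.9%). dpy-13 (F30B5.1), whose loss gives short and fat worms, went from 17.9, 14.5 and 24.2 CPM to 107, 126 and 86.6 CPM, a change of 2.49 (SE 0.29, adjusted p = 0.005). The body-shape collagens dpy-4, dpy-5 and rol-6 changed by 2.53, 2.48 and 2.49, and the furrow collagens dpy-8 and dpy-9 by 1.87 and 1.73. None of these 6 overlapped between the groups, where 11.5% of all genes tested had every MNA library above every control. For dpy-13, dpy-4 and dpy-5 this was a condition of being named, so it adds no support. The summed level of the list did not follow: it was 10434, 12337 and 9783 CPM in control and 9587, 10905 and 10273 CPM under MNA, so the groups overlapped. Of the 6 furrow collagens tested, only dpy-8 and dpy-9 were called higher. The other 4 were not called, and the median of the furrow collagens was 0.17.

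Collagens were high under nicotinic acid too. dpy-13 stood at 75.6, 61.9 and 42.4 CPM there, below MNA in every library, yet the difference of 0.83 did not pass (adjusted p = 0.24). Of the 45 risen collagens, 1 was higher under MNA than under nicotinic acid by test. Over all 135 collagens the median was 0.94 under nicotinic acid, with 50 higher than the same controls and 6 lower. The 45 were chosen by the MNA change, and their median, as a difference from the control mean, was 1.36, 1.44 and 1.18 in MNA 1, 2 and 3 and 1.34, 1.07 and 0.80 in nicotinic acid 1, 2 and 3. Control 2 was the lowest control for 26 of the 45. Without MNA 2 the count was 28, and without nicotinic acid 1 it was 65.

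Hedgehog-related proteins and their Patched-related receptors, which in worms serve the epidermis and its matrix, rose in 19 of 62, with 1 lower and a median of 0.34. Of the secreted members, the ground-like gene grl-7 (T02E9.2) went from 5.4, 2.66 and 5.45 CPM to 17.3, 18.3 and 14.7 CPM. The groundhog genes grd-1 and grd-2 changed by 1.09 and 2.29, and the warthog gene wrt-4 by 1.93; grd-2 was not called without MNA 1 or control 3. Among receptors, ptr-14 (R09H10.4) rose from 11.1, 11.4 and 13 CPM to 21.5, 24.2 and 18.7 CPM. ptr-14 and ptr-11, the latter at 0.81, were the 2 of the 19 that were higher than under nicotinic acid, with adjusted p = 0.006 and 0.012. The receptor ptr-25 fell by 2.22, a call lost without MNA 1 or MNA 2. The 19 became 10 without MNA 1, 12 without control 2 and 9 without MNA 2.

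Moulting genes and astacin proteases, which cut matrix proteins, were higher in 13 of 50 and lower in 1, with a median of 0.24. That was 26% higher, beside 3.63% of all genes tested. The summed level of the list overlapped between the groups, at 693.8, 574.5 and 613.2 CPM in control and 643.4, 656.7 and 599 CPM under MNA. nas-15 changed by 2.27, nas-14 by 1.70, nas-8 by 1.50 and mlt-10 by 0.73, and each of these kept its call without any 1 library. The timing gene lin-42, related to Period, rose by 1.04 but lost its call without MNA 1, MNA 2 or control 1. Without MNA 2 the 13 became 7, and without MNA 1 they became 8.

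**Figure D3:**
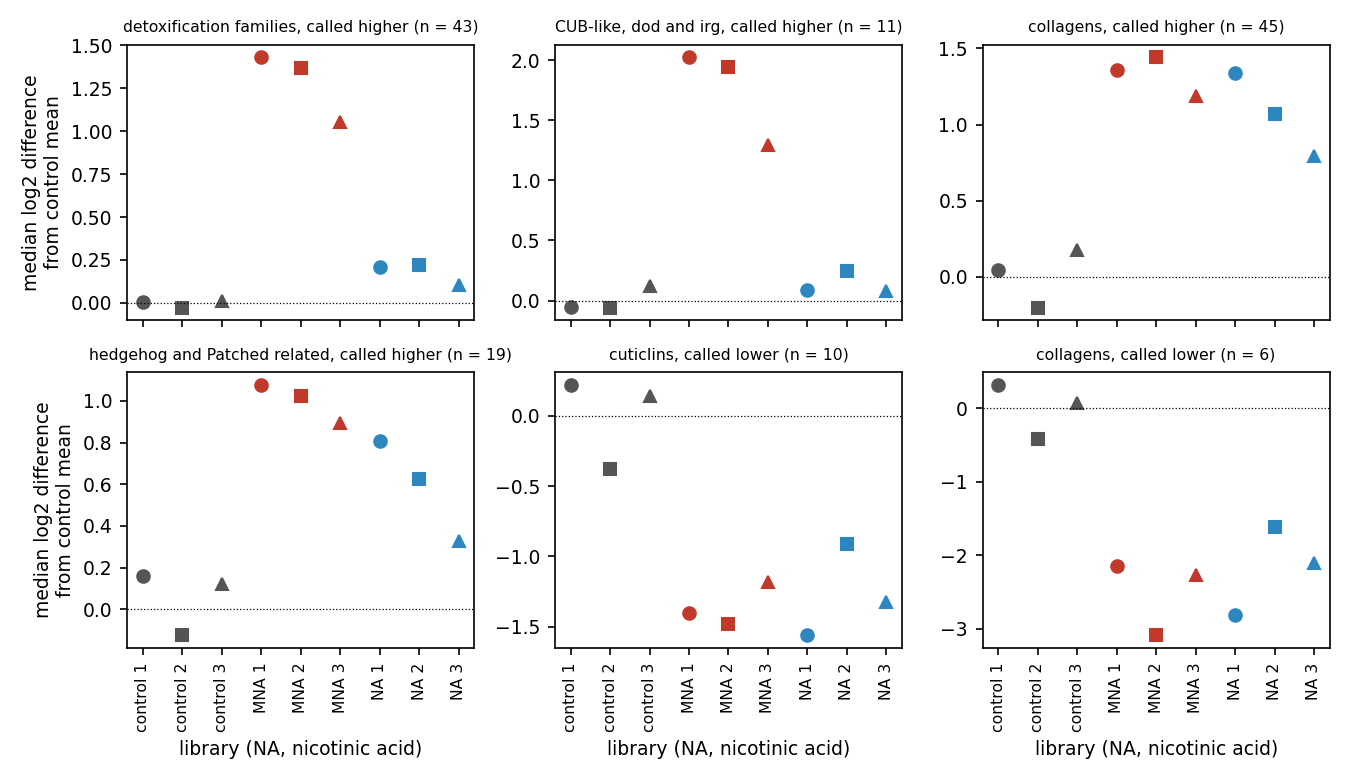
Median, over the called members of 6 gene groups, of the log2 difference between each library and the mean of the 3 control libraries (pseudocount 0.5 CPM), for control (grey), MNA (red) and nicotinic acid (NA, blue) libraries 1 to 3. The detoxification and CUB-like groups sit near 0 in nicotinic acid, with MNA 3 the lowest MNA library, while collagens and cuticlins move in the nicotinic acid libraries too; the members were chosen by the MNA change.

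The families of detoxification had 43 risen members in all. Their median difference from the control mean was 1.43 in MNA 1, 1.37 in MNA 2 and 1.05 in MNA 3, and between 0.10 and 0.22 in the nicotinic acid libraries. MNA 1 was the highest MNA library for 31 of them, whereas MNA 2 was the highest for 30 of the 45 risen collagens. On the second principal component MNA 3 stood at 2.67, and MNA 1 and MNA 2 at 16.2 and 16.9.

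The largest falls included the hatching enzyme, cuticle collagens, cuticlins and signalling genes. The hatching enzyme hch-1 (F40E10.1), an astacin that digests the eggshell from within, read 40.7, 27.2 and 27.2 CPM in control and 4.39, 2.51 and 4.94 CPM under MNA, a fall of 3.01 (SE 0.62, adjusted p = 0.0343). The collagen dpy-17 (F54D8.1) went from 188, 106 and 164 CPM to 21.4, 16.1 and 27.4 CPM, and dpy-14 (H27M09.4) from 156, 95.9 and 136 CPM to 17.1, 12.8 and 24 CPM. The mean levels were 8.03-, 7.04- and 7.18-fold apart in that order. That the groups did not overlap was a condition of naming these genes, and the calls were fragile. hch-1 was called in 2, dpy-14 in 3 and dpy-17 in 5 of the 9 fits without a library, with adjusted p up to 0.142, 0.121 and 0.0931. A replicate block ended the calls of these 3 too, and of 6 of the 20 largest falls in all, but of none of the 20 largest rises.

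Other falls were firmer. The insulin-like peptide ins-19 (T10D4.13) read 8.5, 5.7 and 6.85 CPM in control and 0.59, 0.581 and 0.385 CPM under MNA, 13.5-fold lower (adjusted p = 0.0026). dyf-7 (C43C3.3), which anchors the dendrite tips of embryonic sense organs, went from 6.66, 4.65 and 7.4 CPM to 0.632, 1.13 and 1.12 CPM, a fall of 2.68 (SE 0.28, adjusted p = 3.28e-04). The intermediate filament gene ifa-3 went from 13.2, 8.19 and 8.8 CPM to 1.81, 0.872 and 1.02 CPM. These 3 kept their calls without any 1 library, as did F57B1.6, Y41D4B.6, T05A7.11, C44H9.7 and the proteoglycan gene cpg-20. That makes 8 of the 20 largest falls, and the other 12 lost the call without MNA 2.

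**Figure D4:**
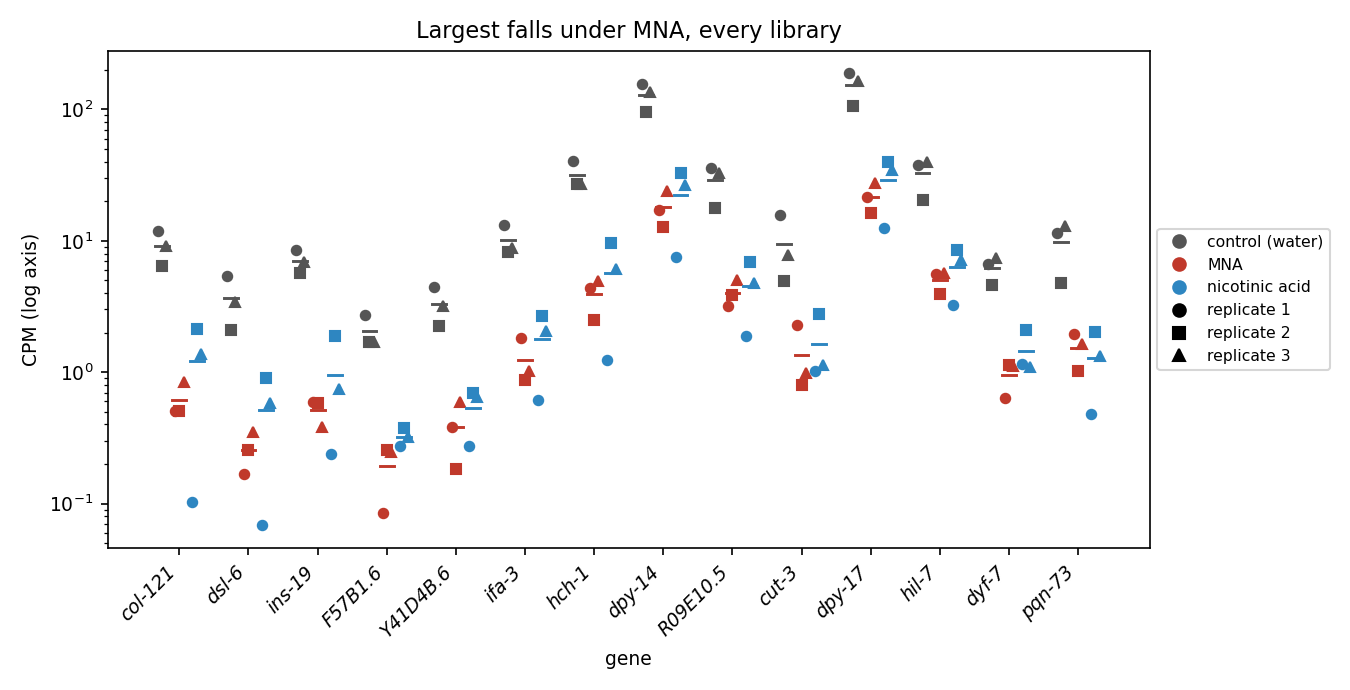
Level in CPM (log axis) of the 14 genes with the largest falls under MNA, in each control (grey), MNA (red) and nicotinic acid (blue) library, with the group mean as a bar and the replicate number as the symbol shape. The MNA libraries lie below all controls, as the choice of these genes required. Control 2 is the lowest control library throughout, and the nicotinic acid libraries overlap the MNA libraries for every gene shown but F57B1.6.

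None of the 20 largest falls differed between MNA and nicotinic acid by edgeR, and none did by unadjusted p under 0.05 (no other tool was run on this contrast). For dpy-17 the nicotinic acid libraries held 12.4, 40.1 and 34.5 CPM, a difference of -0.40 between the compounds with an SE of 0.48 (adjusted p = 0.81). For dyf-7 the difference was -0.52 with an SE of 0.32. The 95% intervals of these differences ran from -1.57 to 0.77 for dpy-17 and from -1.21 to 0.18 for dyf-7, so a missed threshold does not show that the compounds acted alike. Control 2 was the lowest control library for all 20.

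Zona-pellucida-domain cuticlins and other apical matrix genes fell in 10 of 38 and rose in 2, with a median of -0.34. cutl-16 (K06A1.3) was the firmest, from 9.71, 6.67 and 10.3 CPM to 2.19, 2.25 and 2.03 CPM, a fall of 2.04 (SE 0.19, adjusted p = 1.73e-04). cutl-13 fell by 3.68 with 1, 2 and 7 counts left in the MNA libraries, cut-3 by 2.83, cut-5 by 2.61 and cutl-9 by 1.66. The members that rose were the lipocalins lpr-7 at 1.02 and lpr-4 at 0.71, both lost without MNA 1 or MNA 2 (adjusted p up to 0.148), lpr-7 also without control 2 or control 3. The summed level of the list was 630.5, 414.9 and 474.4 CPM in control and 387.5, 395.7 and 343.6 CPM under MNA, so control 2 lay close to the MNA libraries. The 10 falls became 3 without MNA 2 and 6 without MNA 1, MNA 3 or control 3, and none of the 10 differed from nicotinic acid by edgeR, with or without adjustment.

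Of 10 heterochronic timing genes 1 was lower and 1, lin-42, higher. The heterochronic factor hbl-1 (F13D11.2), which is high in embryos and young larvae, went from 94.9, 57.1 and 94.5 CPM to 19.2, 18.7 and 23 CPM, a fall of 2.01 (SE 0.32, adjusted p = 0.0145). Its call was lost without MNA 1, MNA 2 or control 3, with adjusted p up to 0.0764. The muscle factor unc-120 fell by 0.88 and kept its call in all 9 fits. The bZIP factor ces-2 and the zinc finger factor egl-46, which act in cell death and in neuron divisions, fell by 2.66 and 2.49, and both lost the call without MNA 1 or MNA 2 (adjusted p up to 0.10), ces-2 also without control 1 or control 3. Notch-ligand genes went both ways, with dsl-6 at -3.77, dsl-3 at -1.68 and dsl-2 at 0.56; the falls missed the threshold without MNA 2 (adjusted p = 0.051 and 0.0534). Of 25 embryonic transcription factors listed, 3 were lower (unc-120, tbx-8 and cnd-1) and 1 higher (tbx-38); without MNA 1, MNA 2 or control 1 the fall of a single factor was called and no rise.

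Embryo markers were looked at beside these falls. Of the 7 late-embryo markers tested, 2 were lower, and these are hch-1 and dpy-17, already among the largest falls. All listed late-embryo markers summed to 727.2, 544.5 and 662.8 CPM in control and 454.9, 464 and 440.6 CPM under MNA, without overlap. Summed without hch-1 and dpy-17, the list held 498.4, 411.8 and 471.2 CPM in control and 429.1, 445.4 and 408.2 CPM under MNA, so the groups overlapped. Those 2 were left out because they fell. hlh-1 was listed at 0 in all libraries. The early zygotic markers summed to 10.7 to 16.1 CPM in control and 14.9 to 19.7 CPM under MNA, with none of 5 called. Germline and oocyte markers summed to 9534 to 10663 CPM and 9245 to 10287 CPM, with none of 8 called, and of 26 oocyte and eggshell genes edgeR called none, adjusted or not, nor did DESeq2 and limma-voom. The part of embryos in the falls was not tested.

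**Figure D5:**
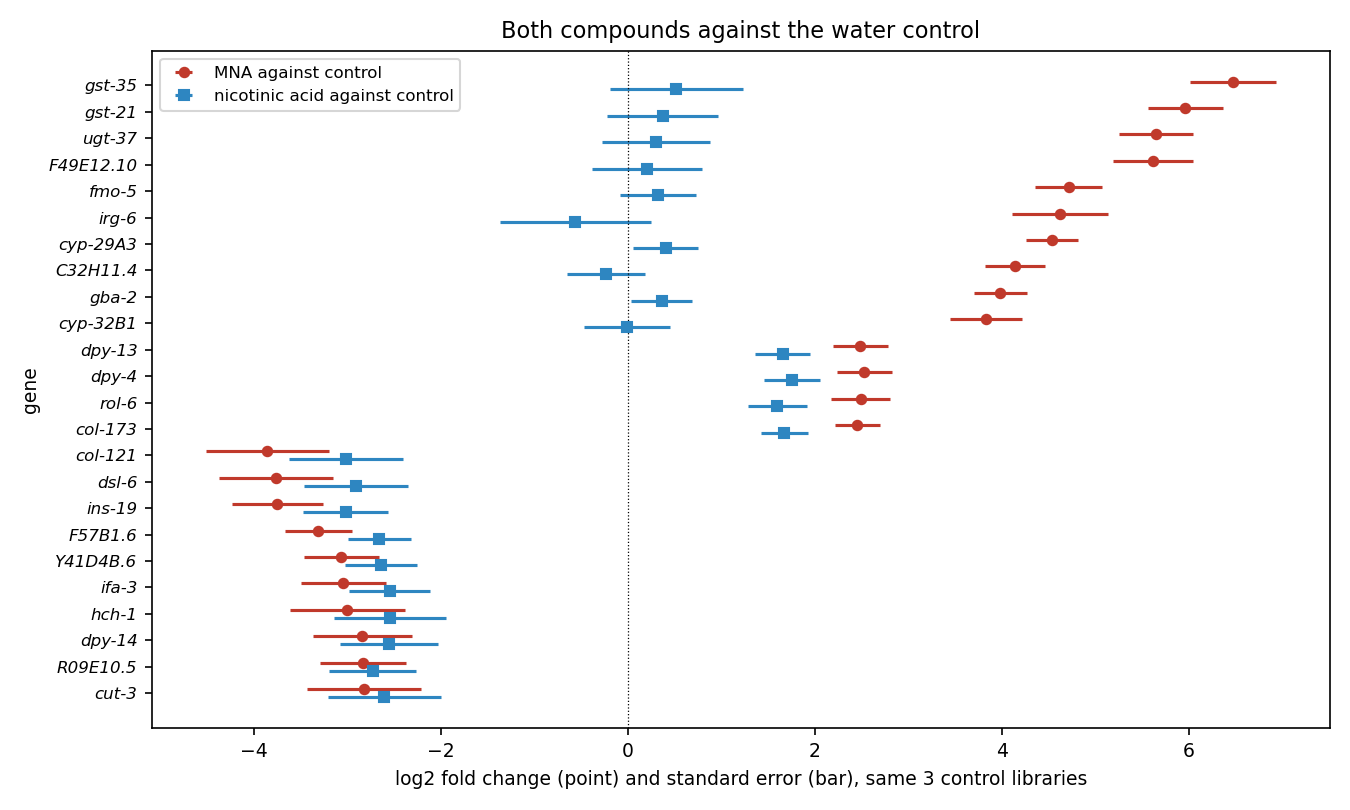
Log2 fold change (point) and its standard error (bar) against the same 3 control libraries for MNA (red) and nicotinic acid (blue), for the 10 largest rises, 4 cuticle collagens and the 10 largest falls under MNA. The 10 largest rises lie between -0.56 and 0.52 under nicotinic acid, while collagens and the falling genes lie on the same side for both compounds.

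Adaptors that feed proteins to ubiquitin ligases, the F-box and MATH/BTB genes, had 18 of 365 lower and 2 higher, so that 4.93% fell, near the 3.78% of all genes, at a median of -0.03. fbxc-24 fell by 1.43, fbxc-20 by 2.37, the Skp1-related skr-21 by 1.27 and bath-10 by 1.30, and these 4 kept their calls without any 1 library. The 18 became 5 without MNA 1 or MNA 2. Nuclear hormone receptors held 4 higher and 4 lower of 196 (2.04% each way, below the shares of all genes), with 146 of them below 0 and a median of -0.15. nhr-11 rose by 0.88 and was above nicotinic acid (adjusted p = 0.0098), and nhr-127 fell by 2.22, a call lost without MNA 1 or MNA 2 (adjusted p up to 0.0671). Without MNA 2 the counts were 2 and 0. Transthyretin-related genes were lower in 5 of 48 and higher in 1. ttr-50 (F58B3.9) went from 131, 109 and 114 CPM to 70.4, 66.3 and 70.1 CPM, and ttr-45 fell by 0.36. The 5 falls became 2 without MNA 1 or MNA 2, and the rise was called in 1 of the 9 fits without a library.

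Of the genes that lost most CPM, several were digestive proteases with small changes. The cathepsin-B-like cpr-9 went from 1429, 1549 and 1458 CPM to 1223, 1189.6 and 1230.1 CPM, and the aspartic proteases asp-5 and asp-4 fell by 0.29 and 0.27. With cpr-6 at -0.27, 4 of 22 gut proteases were lower and 1 higher, and none of the 4 was called without MNA 2. lea-1 (K08H10.1), of the family that guards cells against drying, went from 570, 422 and 483 CPM to 289, 277 and 294 CPM, a call lost without MNA 2 or control 3. The replicate block ended 5 of the 10 calls among the genes that lost most CPM. None of these 10 kept its call in all 9 fits without a library, against 9 of the 10 that gained most.

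Of the genes around MNA itself, 0 of 16 for NAD, 1 of 16 of the methyl cycle and 1 of 7 sirtuin and oxidase genes were called. Over all genes tested 7.41% were called, and lists this small cannot be set apart from that share. None of the 16 genes for making NAD was called by edgeR, DESeq2 or limma-voom, and by unadjusted p under 0.05, 1 was higher and 2 lower. The changes were -0.08 for the methyltransferase anmt-1 (95% interval -0.48 to 0.32), -0.25 for the MNA oxidase gad-3 (-0.55 to 0.05) and -0.02 for the sirtuin sir-2.1 (-0.11 to 0.07). For the nicotinamidase pnc-1 and the phosphoribosyltransferase nprt-1 the intervals were -0.29 to 0.04 and -0.21 to -0.01. The interval of anmt-1 was the widest of these, and that of sir-2.1 was narrow.

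Of the 16 methyl-cycle genes the S-adenosylmethionine synthetase sams-5 was lower, at 3.42, 2.41 and 2.39 CPM in control and 1.43, 1.34 and 1.61 CPM under MNA, a call lost without control 1, MNA 1 or MNA 2. Its paralog sams-1 changed by 0.04. The xanthine dehydrogenase xdh-1, a molybdenum enzyme of the family that includes aldehyde oxidases, rose from 20, 21.9 and 21.4 CPM to 26.2, 26.1 and 26.1 CPM. It stood higher still under nicotinic acid, at 30.4, 33.2 and 29.1 CPM, and the compounds did not differ by test (adjusted p = 0.12). The call of xdh-1 against control was lost without control 1, MNA 1 or MNA 2.

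Risen genes often lay side by side. By the order of protein-coding genes in RefSeq, 86 of 503 risen genes (17.1%) had a risen gene as a direct neighbour, against 667 of 13351 tested genes (5.0%), and for falls the shares were 60 of 511 (11.7%) and 5.25%. The run cyp-25A1, cyp-25A2 and cyp-25A3 changed by 2.01, 2.14 and 3.40, and the run C32H11.3, C32H11.4 and srlf-4 by 2.07, 4.14 and 2.49. In the run ugt-8, ugt-14, ugt-13 and H23N18.5 the changes were 1.51, 1.50, 0.60 and 1.99; ugt-14 lost its call without MNA 1, MNA 2, control 2 or control 3, and ugt-13 without MNA 2, MNA 3 or control 1. Of the falls, dpy-17, sax-2 and tbx-2 lay together at -2.82, -0.67 and -0.82. Many such neighbours are paralogs of similar sequence, the counting is not stated to use strand, and how reads shared by neighbours or paralogs were assigned is not given, so single members of these runs are uncertain.

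Several lists held no call. None of 26 muscle, 21 neuron, 22 germline, 38 glycolysis and citric-acid-cycle, 81 ribosomal and 69 mitochondrial ribosomal genes was called by edgeR, DESeq2 or limma-voom. By unadjusted p under 0.05 these lists held 0, 5, 0, 4, 2 and 1 genes in that order. Over all genes tested 7.41% were called, so the absence of calls in lists of 21 to 26 genes says little. Some lists leaned upward without a call: 76 of 81 ribosomal genes (median 0.09) and 18 of 21 neuron genes (median 0.17) lay above 0. Of 44 respiratory-chain genes 1 was called, and 41 lay above 0 at a median of 0.05. None of the 7 genes for yolk proteins and their receptor passed the test in any of these tools, and 1 was lower by unadjusted p. Their median was -0.20, with 6 of the 7 below 0. Their summed level was 69611, 76134 and 64599 CPM in control and 61460, 62107 and 58485 CPM under MNA. The heat-shock list had 1 of 11 lower, hsp-12.1 at -1.72, and the epidermal defence list 2 of 25 lower, cnc-2 and cnc-7 at -1.09 and -1.59. Without MNA 2 these 3 genes had adjusted p = 0.077, 0.111 and 0.142. All 3 were also lost without control 3, both cnc genes without MNA 1, cnc-2 without MNA 3 and cnc-7 without control 2.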

How the data were processed

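Messenger RNA of whole adult worms was sequenced from libraries made with a TruSeq kit, and the authors deposited counts of reads per gene with no normalization, per the file headers. CASAVA, TopHat 1.4.1 and HTSeq are named in the submitters' processing notes; for the genome build, annotation, strand setting and treatment of shared reads, the sources used here name nothing, so no coordinates are printed. The 9 columns of a second table, of length-scaled values, were not used. Symbols came from RefSeq (44080 of 45461 identifiers matched). No sequence is printed.

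Genes with too few counts were removed with filterByExpr (minimum count 10), which left 13985. One quasi-likelihood model in edgeR 4.0.16 (R 4.3.3, robust, TMM factors from 0.963 to 1.028) was fitted to all 9 libraries with group means, with Benjamini-Hochberg adjustment over all genes tested, two-sided, at a threshold of 0.05. Checks used limma 3.58.1, DESeq2 1.42.0, other scalings, no filter, the 6 libraries alone, a term for replicate number and the omission of each library. At these depths 3 counts, taken as the floor, are 0.096 to 0.162 CPM, which covers counting error only.

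Genes were named by rule: among called genes with a mean of at least 1 CPM and no overlap between the groups, the 20 largest rises and falls and the 10 that gained or lost most CPM; up to 4 called members with the smallest p per list, or 2 where none was called; and every gene of the lists around NAD, methylation, sirtuins and aldehyde oxidases. Of all tested genes, 24.6% had no overlap. Genes named beyond the rule (such as rol-6, irg-3, sod-3, wrt-4 and members of neighbour runs) were chosen after their values were seen. The lists and members were chosen with earlier results of these data known, so list counts describe and are not tested. The labels do not say that replicates are separate cultures, and p-values then reflect only the spread among these samples, which may be technical.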

Additional observations from a re-analysis of the deposited data

How the results depend on the processing

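Both counts of called genes kept within 1.5 times of 508 and 528 under 8 alternatives: other scalings, no filter, DESeq2, limma-voom, the 6 libraries alone and a replicate term. Leaving out each library gave 228 to 565 genes higher and 141 to 630 lower; such fits hold fewer samples. By list, the members higher ran from 8 to 12 for cytochromes P450, 6 to 9 for short-chain dehydrogenases, 9 to 14 for glutathione S-transferases, 5 to 10 for UDP-glucuronosyltransferases, 10 to 14 for SKN-1 reporters, 10 to 11 for CUB-like genes, 9 to 20 for hedgehog-related genes and 28 to 65 for collagens, and cuticlins lower from 3 to 11. Other list counts moved by over 1.5 times, among them lipid breakdown from 7 higher to 11 with library totals alone and 14 with the block, collagens from 6 lower to 11 in DESeq2 and 3 with the block, transthyretin-related genes from 5 lower to 8 in DESeq2 and 9 with the block, C-type lectins from 9 lower to 5 with upper-quartile factors or totals alone, gut proteases from 4 lower to 7 in DESeq2, and nuclear receptors from 4 lower to 7 with no filter and 2 with library totals alone. Redox genes and lysozymes went from 4 higher to 2 with the 6 libraries alone. Over 4182 values of single genes under other settings, no called value changed sign, 342 lost the call and 9 gained it. The replicate numbers share no stated culture or day. Deviations of same-numbered control and MNA libraries correlated at 0.12, 0.08 and 0.22, and each MNA library correlated best with the control of its number, a hint from the data and not from the design. With a replicate block 544 genes were higher and 512 lower, of which 469 and 445 were called without it too. Genes at a few counts in one group, such as clec-9, cutl-13 and F57B1.6, are limited by depth.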

Other observations

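Some smaller groups had members that moved in opposite directions. Of 17 lipid-binding proteins, the secreted far-3 (F15B9.1) went from 21.5, 19.2 and 17 CPM in control to 47.9, 44.1 and 26.5 CPM under MNA, and lbp-7 changed by 0.49, while lbp-1 fell by 0.41 and lbp-3 fell by 0.22. Each of these 4 calls was lost without MNA 1 or MNA 2. Histone genes were split in the same way. The linker histone his-24 (M163.3) went from 222, 186 and 215 CPM to 108, 106 and 126 CPM, with nicotinic acid at 72.5, 119 and 126 CPM, but its adjusted p of 0.0496 by edgeR passed in only 2 of the 9 fits without a library. The linker-histone-like hil-7 (C01B10.5) fell by 2.69, and the H3-type gene his-74 rose by 0.29; both lost the call without MNA 1 or MNA 2.

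A few signalling peptides with low counts were lower, though their lists leaned upward, with medians of 0.18 over 74 neuropeptide and 0.24 over 23 insulin-like genes. The neuropeptide-like gene nlp-39 (C54C8.9) read 2.7, 1.06 and 1.84 CPM in control and 0.379, 0.472 and 0.35 CPM under MNA, a log2 change of -2.20 that kept its call in all 9 fits without a library. Its nicotinic acid libraries held 0.0683, 0.16 and 0.193 CPM, and the compounds did not differ by test (adjusted p = 0.24, edgeR). nlp-39 was the only one called of 74 neuropeptide genes tested against control. The insulin-like gene ins-2 fell by 2.23, a call lost without MNA 1, MNA 2 or control 3, and with ins-19 it made 2 lower of 23 insulin-like genes.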
